A study of Mus musculus with 2 samples.

Results

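The 37 germline genes examined here encode proteins of the piRNA pathway and germ granule (16 genes), of meiotic chromosomes (11 genes), regulators of germ cell programmes (5 genes) and proteins of gametes and intercellular bridges (5 genes). They were listed by name, with earlier results of these data known. Each name was looked up in the mouse annotation GENCODE M21 (genome build GRCm38), which holds 21938 protein-coding genes on the nuclear chromosomes. All 37 were found, and each had at least 20 methylation calls in each library, both within 500 bp of its transcription start site (TSS) and over its gene body. Of all protein-coding genes, 20704 met that minimum at the promoter and 21625 over the gene body.

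DNA methylation was measured by whole-genome bisulfite sequencing (WGBS) in primary osteoblasts, the bone-forming cells, released by enzyme from the parietal bones of 3-day-old C57BL/6 mice and cultured for 3 days. The compared mice were wild type (WT) and TCKO, which carry Prx1-Cre and are homozygous for floxed Tet1 (Tet1fl/fl), Tet2 (Tet2fl/fl) and Tet3 (Tet3fl/fl), so that Cre expressed in the mesenchyme of limb buds and skull deletes parts of all 3 Tet genes. TET enzymes oxidize 5-methylcytosine and so start its removal. Cells of the culture in which Prx1-Cre was not active keep their Tet genes. There was 1 library per genotype, so every test below compares the libraries rather than the genotypes, and its p-value and every interval cover counting error only.

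A methylation call is 1 read of 1 CpG cytosine, and the level is the percentage of calls that are methylated. The WT library held 261062118 nuclear calls and the TCKO library 223581206, or 5.97 and 5.11 calls per CpG cytosine of the genome. The mean level was 70.2% in WT and 76.3% in TCKO. In each Tet gene, the exon with the lowest ratio of TCKO to WT calls was picked among exons with at least 50 WT calls. Exon 11 of Tet1 held 62 calls in WT and 1 in TCKO, exon 10 of Tet2 held 155 and 46, and exon 11 of Tet3 held 85 and 26. The ratio over the nuclear genome was 0.856. Over the whole genes the calls were 14737 and 11658 for Tet1, 9452 and 7407 for Tet2, and 10356 and 8480 for Tet3. As the exons were picked for their low ratio, they cannot serve as a test of the deletions. Of 6 osteoblast genes, the promoters of Col1a1 (1.41%), Runx2 (2.88%) and Col1a2 (9.86%) were low in WT, Alpl (23.4%) and Sp7 (38%) were intermediate and Bglap (71.8%) was high. Of 7 genes that mark blood, endothelial or muscle cells, Ptprc, Cd3e, Spi1, Cdh5, Pecam1 and Myf5 lay between 63.7% and 83.4%, and Myod1 was at 17.6%.

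Germline genes are needed to make sperm and eggs and are kept off in somatic cells. Many have promoters rich in CpG, a class that is generally free of methylation, but theirs gain methylation around the time the embryo implants, and this methylation is known to hold them off. A repressor complex that contains E2F6 and the E-box-binding pair MGA and MAX takes part in marking them. The E-box CACGTG, which is its own reverse complement, and the E2F-type hexamer TCCCGC each contain 1 CpG, so methylation within the strings themselves can be read from the data. RNA was not analysed here, so whether these genes were silent in the osteoblasts was not measured.

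The 250 bases upstream of the TSS are shown for the 6 members in which a string CpG within that stretch carried the most calls, read from the GRCm38 genome sequence of RefSeq (GRCm38.p6) in the direction of transcription. Capitals mark CACGTG, and TCCCGC on either strand, which reads GCGGGA when it lies on the other strand. The positions are chr15:82069746-82069995 (plus strand), chr10:88459319-88459568 (plus strand), chr5:135350045-135350294 (minus strand), chr12:111971309-111971558 (plus strand), chr1:166238748-166238997 (minus strand) and chr3:95559427-95559676 (plus strand), and no exon of a protein-coding gene overlaps any of them.
Mei1: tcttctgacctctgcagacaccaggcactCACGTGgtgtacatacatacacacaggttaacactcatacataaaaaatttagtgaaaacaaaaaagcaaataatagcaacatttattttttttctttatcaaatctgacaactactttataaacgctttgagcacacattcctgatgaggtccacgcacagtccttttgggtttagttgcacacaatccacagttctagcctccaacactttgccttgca
Sycp3: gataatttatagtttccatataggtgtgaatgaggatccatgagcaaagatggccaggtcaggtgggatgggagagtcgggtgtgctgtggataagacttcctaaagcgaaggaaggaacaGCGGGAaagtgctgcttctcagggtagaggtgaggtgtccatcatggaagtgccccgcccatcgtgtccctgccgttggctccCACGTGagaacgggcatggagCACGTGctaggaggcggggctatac
Fkbp6: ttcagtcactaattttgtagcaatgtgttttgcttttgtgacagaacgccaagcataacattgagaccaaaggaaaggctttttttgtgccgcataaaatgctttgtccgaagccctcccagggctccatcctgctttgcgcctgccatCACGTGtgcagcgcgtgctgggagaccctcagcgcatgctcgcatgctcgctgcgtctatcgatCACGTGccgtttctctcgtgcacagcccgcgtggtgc
Tdrd9: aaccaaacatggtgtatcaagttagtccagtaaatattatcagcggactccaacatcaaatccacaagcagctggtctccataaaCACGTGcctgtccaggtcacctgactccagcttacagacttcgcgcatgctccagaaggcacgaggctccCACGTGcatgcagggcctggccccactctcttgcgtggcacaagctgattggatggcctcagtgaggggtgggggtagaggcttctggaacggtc
Mael: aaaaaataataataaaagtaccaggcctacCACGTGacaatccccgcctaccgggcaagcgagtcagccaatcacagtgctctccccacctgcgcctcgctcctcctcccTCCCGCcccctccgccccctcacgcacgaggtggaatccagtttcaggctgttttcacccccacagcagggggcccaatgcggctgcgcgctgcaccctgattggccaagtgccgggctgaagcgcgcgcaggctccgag
Hormad1: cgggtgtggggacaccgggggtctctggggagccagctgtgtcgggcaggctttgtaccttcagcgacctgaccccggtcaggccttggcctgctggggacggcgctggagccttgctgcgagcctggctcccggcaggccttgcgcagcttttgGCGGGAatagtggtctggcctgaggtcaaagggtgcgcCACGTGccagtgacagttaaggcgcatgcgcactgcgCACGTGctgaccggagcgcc

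The 6 stretches hold between 3 (Mei1) and 19 (Hormad1) CpGs. Sycp3, Fkbp6, Tdrd9 and Hormad1 each carry a pair of E-boxes, and in Sycp3 and Hormad1 both lie within 100 bases of the TSS.

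Most of the 37 listed promoters were methylated in WT osteoblasts. Because the genes were chosen with earlier results of these data known, their level describes the list and carries no test. Of the 37, 31 had a level of at least 50% and 15 of at least 80%, and the median was 75.2% (range 9.71% to 91.1%). Over all 20704 promoters the median was 9.23%, and 28.3% of them reached 50%. Of 60 further germline genes with enough calls, described at the end, 36 (60.0%) reached it. Between 52 and 546 WT calls and between 46 and 523 TCKO calls stood behind each member. The promoter of the nearest other protein-coding gene was under 50% in WT for 33 of the 37 members, with a median of 10.1%.

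**Figure D1:**
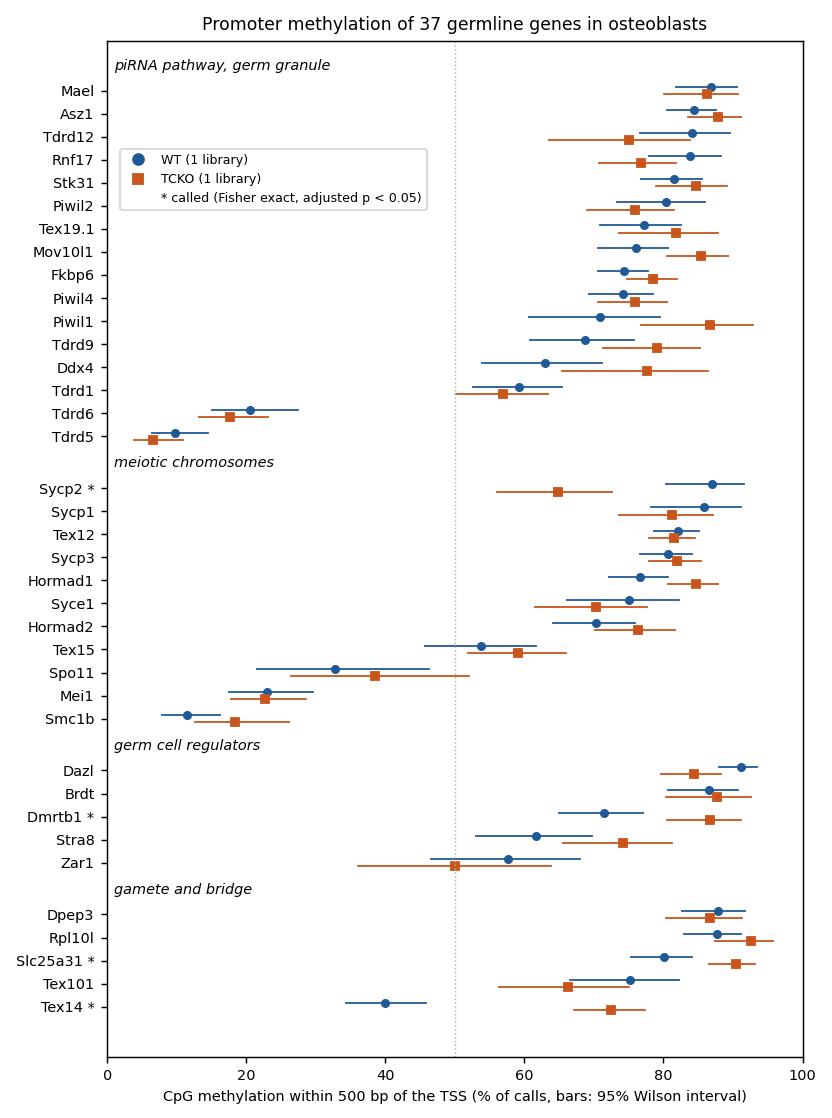
Methylation within 500 bp of the TSS for each of the 37 germline genes, by role, in WT (circles) and TCKO (squares), with 95% Wilson intervals and 1 library per genotype. In WT, 31 genes lie at or above the dotted line at 50%, and Tdrd5, Tdrd6, Smc1b, Mei1, Spo11 and Tex14 lie below it.

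These levels stood out most at promoters with many CpGs. The ratio of observed to expected CpGs (o/e) compares the number of CpGs with that given by the C and G content, and 0.6 is a usual limit for a CpG island. A ratio of at least 0.6 was found in 21 of the 37 members (56.8%) and in 46.0% of all promoters, and the members held a median of 47 CpGs in 1001 bp against 41. Among all 9989 promoters of that density with enough calls, 130 (1.30%) reached 50% in WT, while 16 of the 21 dense members (76.2%) did. Among the 16 members with a lower ratio, 15 reached 50%. The split of the dense class by WT level is a description of the genes listed and carries no test.

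**Figure D2:**
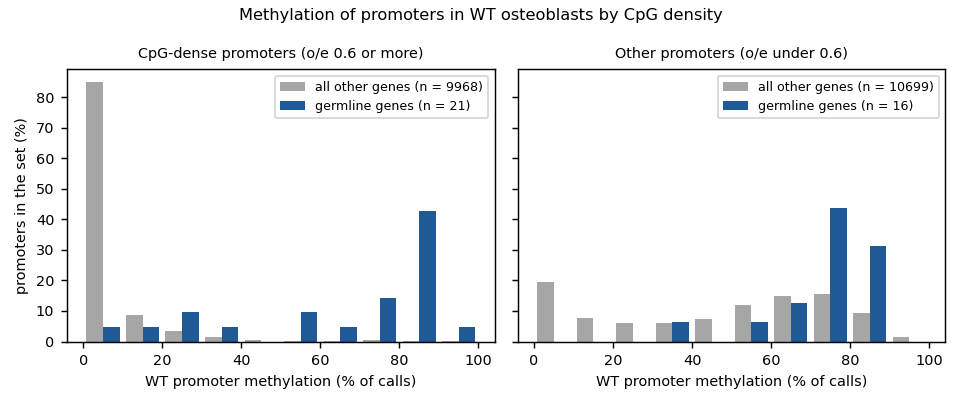
Share of promoters (%) in each 10-point class of WT methylation, for CpG-dense promoters (left) and other promoters (right), with germline genes in blue and all other protein-coding genes in grey. Among dense promoters most other genes fall in the lowest class, while 16 of 21 germline genes lie at 50% or more.

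In TCKO the germline promoters stood close to their WT levels. The median change was 1.74 points, against 0.918 over all promoters and 3.07 over all 5850 promoters that reached 50% in WT. Over the 130 promoters that reached 50% in WT with an o/e of at least 0.6, it was 0.678 points. Of the 37 members, 21 were higher and 16 lower in TCKO, and 29 moved by less than 10 points. Of all 20704 promoters, 12487 were higher and 5825 lower, and 3410 rose and 802 fell by at least 10 points. The Fisher exact test on pooled calls, adjusted by Benjamini-Hochberg over all 20704 promoters, called 3 members higher (Tex14, Dmrtb1 and Slc25a31) and 1 lower (Sycp2). Of all promoters it called 9.06% higher and 0.763% lower, so that 3 of 37 is near the background. A rise of at least 10 points, with no p, was seen in 7 of the 37 members and in 16.5% of all promoters. Calls on the same read are not independent, and with 1 cytosine kept per 100 bp none of the 30 members with enough calls left was called in either direction at adjusted p below 0.05.

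The piRNA pathway guides small RNAs against transposons in the germline. Its 16 members had a median promoter level of 75.2% in WT and a median change of 2.45 points, while their pooled calls differed by -0.61 points, and none was called in either direction. Among the PIWI proteins, which carry the piRNAs, Piwil2 had 80.4% of 148 calls methylated in WT and 75.8% of 178 in TCKO, and Piwil4 had 74.1% of 348 and 75.9% of 286. Piwil1 had 70.9% of 86 calls in WT and 86.8% of 68 in TCKO, a difference of 15.8 points (95% interval 2.65 to 27.8) that was not called (adjusted p = 0.14, Fisher exact test). The intervals of Piwil2 and Piwil4 cover 0. The principal transcript of Piwil1 starts 33650 bp further downstream, where 69.9% of 166 and 64.0% of 250 calls were methylated.

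Highly methylated in both libraries were Mael, a germ granule protein (86.8% and 86.2%), Asz1, a protein of the same granules (84.4% and 87.8%), and the kinase-like gene Stk31 (81.6% and 84.7%). Rnf17, which encodes a protein with tudor domains, had 83.8% and 76.7%, and Tex19.1, which restrains transposons, had 77.2% and 81.8%. The 95% intervals of these 5 differences cover 0. The RNA helicase genes Mov10l1 (76.0% of 275 calls in WT, 85.4% of 247 in TCKO) and Ddx4 (62.9% of 116, 77.6% of 58), also known as Vasa, were higher in TCKO by 9.43 and 14.7 points without being called (adjusted p = 0.0708 and 0.295, Fisher exact test). Fkbp6, a cochaperone, had 74.4% of 546 calls and 78.5% of 498.

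The Tudor domain genes, whose products bind methylated PIWI proteins, included both methylated and unmethylated promoters. Tdrd12 (84.2% in WT, 75% in TCKO), Tdrd9 (68.8%, 79.1%) and Tdrd1 (59.2%, 56.9%) were methylated, while Tdrd6 (20.6%, 17.6%) and Tdrd5 (9.71%, 6.57%) were not. Within 100 bp of the TSS none of 41 WT calls and none of 55 TCKO calls at Tdrd5 was methylated, which allows levels of up to 7.32% and 5.45%. A start site on the opposite strand, that of the antisense transcript 4930518J20Rik, lies 175 bp downstream of the TSS of Tdrd5. Tdrd5 and Tdrd6 had the highest CpG counts of all members, 86 and 84.

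The meiosis genes build and join the chromosome axes and make the breaks for recombination. For their 11 promoters the median level was 75% in WT, and the median change was 1.29 points, with 6 higher and 5 lower in TCKO. Of these, 1 was called lower and none higher. The synaptonemal complex genes Sycp1 (85.8% in WT, 81.2% in TCKO), Sycp3 (80.6%, 81.9%), Tex12 (82.1%, 81.5%) and Syce1 (75%, 70.2%) had differences whose 95% intervals cover 0. Hormad1, an axis protein that monitors synapsis, was at 76.7% of 373 calls and 84.6% of 377 (adjusted p = 0.0664, Fisher exact test), its relative Hormad2 at 70.3% and 76.3%, and Tex15 at 53.7% and 59.1%.

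Sycp2, which encodes an axis protein that pairs with SYCP3, was the only member called lower. Its promoter fell from 87.0% of 138 calls (95% interval 80.3% to 91.6%) to 64.8% of 125 (56.1% to 72.6%), by 22.2 points (interval 11.9 to 32.0; adjusted p = 0.000997, Fisher exact test). In windows of 200 bp, 57 of 65 WT calls and 7 of 14 TCKO calls were methylated at +200 to +400 bp, and 30 of 32 and 16 of 28 at +400 to +600 bp. At -200 to 0 bp the counts were 13 of 15 and 16 of 28, and at 0 to +200 bp 0 of 1 and 6 of 10, while from -400 to -200 bp the levels were 82.9% and 80%. The level counted within the same CpGs (a comparison added after the data were seen) fell by 23.0 points (adjusted p = 0.00393, exact test stratified by CpG). The mean over the 6 CpGs with at least 4 calls in each library differed by -8.46 points, and the calls at these CpGs did not pass the test (adjusted p = 0.986, Fisher exact test). With 250 bp on either side of the TSS (adjusted p = 0.373, Fisher exact test) in the 2000 bp upstream (adjusted p = 0.895) and on the plus strand (adjusted p = 0.0984) Sycp2 was not called either.

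Smc1b, a cohesin subunit of meiosis, was at 11.4% of 228 calls in WT and 18.4% of 125 in TCKO (adjusted p = 0.348, Fisher exact test). Its TSS lies 114 bp from that of Ribc2, which is transcribed the other way and whose promoter window, which overlaps that of Smc1b, had 12.8% and 20.9%. Spo11, which makes the meiotic DNA breaks, was at 32.7% and 38.5% with 52 calls in each library, and Mei1, needed for those breaks, at 23.0% and 22.7%. For both, the TSS of the principal transcript lies inside the gene: 2149 bp downstream in Spo11, with 62.9% in WT and 80.6% in TCKO (124 calls in each), and 12468 bp downstream in Mei1, with 74.1% of 228 calls and 80.6% of 206. Counted there, Spo11 was called higher (adjusted p = 0.0355, Fisher exact test) and neither gene was under 50%. At the gene start of Mei1, 1 of 14 WT calls and 2 of 10 TCKO calls were methylated in the E-box shown above.

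The 5 germ cell regulators had a median level of 71.4% in WT and a median change of 1.2 points, with 3 higher and 2 lower in TCKO. Dazl, an RNA-binding protein needed for entry into gametogenesis, was the most methylated of the 37 promoters in WT (91.1% of 418 calls) and had 84.4% of 270 calls in TCKO, a difference of -6.7 points that was not called (adjusted p = 0.0835, Fisher exact test). Brdt, a bromodomain protein of the testis, was at 86.5% and 87.7%, and Zar1, a gene of the oocyte, at 57.7% of 78 calls and 50% of 46. Stra8, which starts meiosis in response to retinoic acid, was at 61.7% of 128 calls and 74.1% of 116 (difference 12.4 points, interval 0.661 to 23.6; adjusted p = 0.231, Fisher exact test). Its low stretch lay directly upstream of the TSS, where 13 of 37 WT calls and 27 of 43 TCKO calls were methylated at -200 to 0 bp.

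Dmrtb1, a DNA-binding factor of spermatogonia, rose from 71.4% of 210 calls (65.0% to 77.1%) to 86.7% of 158 (80.5% to 91.1%), by 15.3 points (interval 6.89 to 23.1; adjusted p = 0.00923, Fisher exact test). The difference was 13.1 points within the same CpGs (adjusted p = 0.0273, exact test stratified by CpG) and 3.64 points as the mean over the 13 CpGs with at least 4 calls, where it was not called (adjusted p = 0.83). Nor was it called with 250 bp (adjusted p = 0.278, Fisher exact test) or 1000 bp (adjusted p = 0.174) on either side, in the 2000 bp upstream (adjusted p = 0.696) or on the minus strand (adjusted p = 0.997).

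Slc25a31, the ADP/ATP carrier of the testis, rose from 80.1% of 316 calls (75.3% to 84.1%) to 90.4% of 302 (86.5% to 93.2%), by 10.3 points (interval 4.76 to 15.9; adjusted p = 0.00737, Fisher exact test). At -200 to 0 bp, 37 of 48 WT calls and 52 of 53 TCKO calls were methylated. Of its 14 CpGs with at least 4 calls, 10 were higher and 2 lower in TCKO. It was not called from the calls at these CpGs (mean difference 9.62 points, adjusted p = 0.0867), with 250 bp on either side (adjusted p = 0.0774, Fisher exact test), in the 2000 bp upstream (adjusted p = 0.0888) or on the minus strand (adjusted p = 0.426). Rpl10l, a testis copy of a ribosomal protein gene (87.6% in WT, 92.5% in TCKO), Dpep3, a dipeptidase of the testis (87.9%, 86.8%), and Tex101, a surface protein of sperm precursors (75.2% of 113 calls, 66.3% of 95), were not called. Rpl10l is close in sequence to other ribosomal protein copies, and reads that match more than 1 place equally well were dropped before counting.

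Tex14, which builds the bridges between dividing germ cells, showed the largest difference in pooled calls among the members, from 39.9% of 273 calls (34.3% to 45.8%) to 72.5% of 291 (67.1% to 77.3%), or 32.6 points (interval 24.6 to 39.99; adjusted p = 1.43e-12, Fisher exact test). Its TSS lies 111 bp from that of Rad51c, a DNA repair gene transcribed the other way, and the promoter contains the border of an unmethylated stretch. From -1000 to -400 bp none of 293 WT calls and none of 164 TCKO calls was methylated, which allows levels of up to 1.02% and 1.83%. At -200 to 0 bp, 23 of 53 WT calls and 18 of 27 TCKO calls were methylated, and at 0 to +200 bp 9 of 23 and 44 of 49. Beyond +400 bp the levels were over 80% in both libraries. On the minus strand alone Tex14 was higher in TCKO by 14.1 points and was not called (adjusted p = 0.308, Fisher exact test).

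The calls were also spread differently over this promoter. At -400 to -200 bp, where methylation was near 0, WT had 63 calls and TCKO 20, while at +200 to +400 bp, where it was high, WT had 92 and TCKO 158. When the libraries were compared within the same CpGs with the same weights, Tex14 was at 48.8% in WT and 64.3% in TCKO, a difference of 15.6 points (adjusted p = 5.21e-06, exact test stratified by CpG). Of the 16 CpGs with at least 4 calls in each library, 6 were higher, 1 was lower and 9 were equal. The window of Rad51c, which overlaps that of Tex14, was at 27.8% in WT and 59.5% in TCKO.

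**Figure D3:**
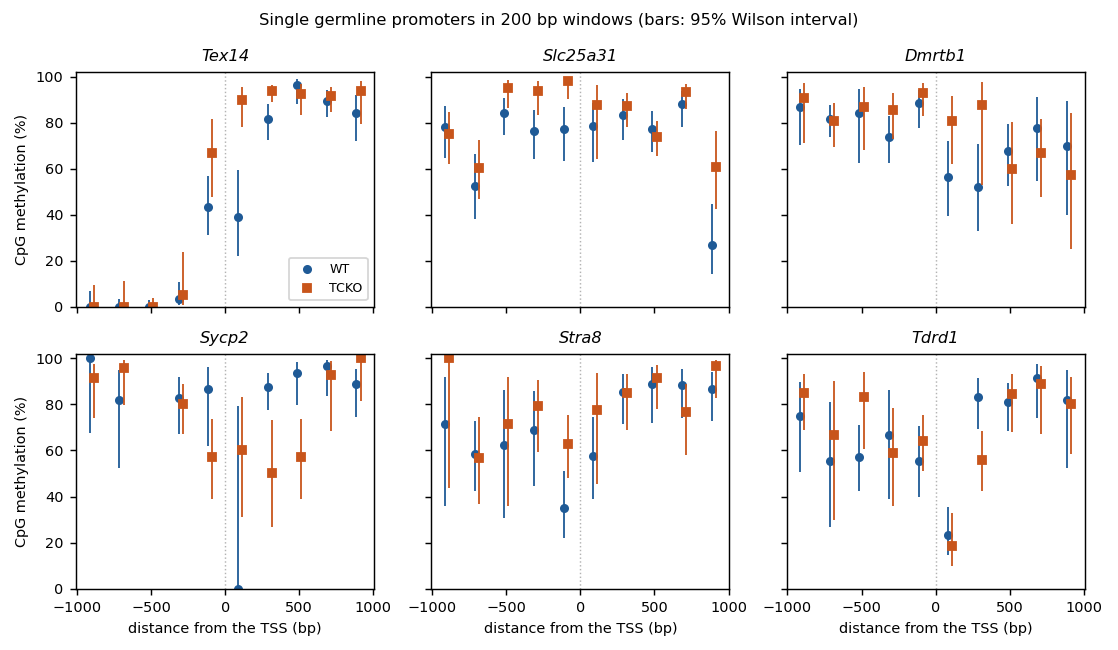
CpG methylation (%) in 200 bp windows from 1000 bp upstream to 1000 bp downstream of the TSS of 6 germline genes, in WT (circles) and TCKO (squares), with 95% Wilson intervals. The Tex14 panel shows the border of the unmethylated stretch near the TSS, Sycp2 the lower TCKO levels from -200 to 0 bp and from +200 to +600 bp, and Tdrd1 the low window at 0 to +200 bp in both libraries (23.3% and 18.6%).

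Compared within the same CpGs, 6 of the 37 promoters were called. The 4 promoters named above were called in the same direction, and Mov10l1 (10.6 points, adjusted p = 0.0372, exact test stratified by CpG) and Hormad1 (8.36 points, adjusted p = 0.0402) were called higher. Over all promoters this comparison called 8.28% higher and 0.303% lower. Across the members, 527 CpGs had at least 4 calls in each library, of which 242 were higher, 178 lower and 107 equal in TCKO.

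Around the TSS the pooled difference between the libraries was smallest just downstream of the start site. Over all 37 members the pooled level was 69.6% in WT and 74.1% in TCKO from -500 to 0 bp, and 72.3% and 71.0% from 0 to +500 bp. For the 31 members at 50% or more in WT, which were divided from the others by their WT level in this window, the pooled level was 78.7% in WT and 81.6% in TCKO from -500 to 0 bp, and 78.0% and 78.2% from 0 to +500 bp. For the other 6 it was higher in TCKO by 8.08 points at 0 to +500 bp. Among the 31, between 1000 and 2000 bp downstream the differences were 10.1 and 10.9 points, and between 5000 and 4000 bp upstream 15.2 and 17.2 points. Over all protein-coding genes the WT level instead dropped to 19.8% at 0 to +500 bp, with a difference of 2.19 points there and 5.16 points at -5000 to -4500 bp. In the 100 kb centred on the TSS, leaving out the nearest 5 kb on either side, all 37 members were higher in TCKO. The median difference was 6.99 points (range 2.44 to 10.1).

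**Figure D4:**
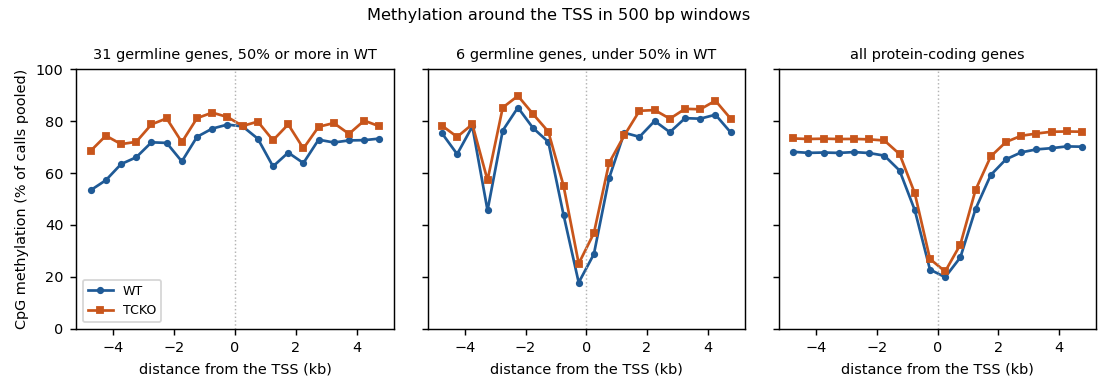
Pooled methylation (%) in 500 bp windows within 5 kb of the TSS for the 31 germline genes at 50% or more in WT, the 6 under 50% (a division by WT level, which fixes the middle of these 2 panels) and all protein-coding genes, in WT (circles) and TCKO (squares). The first group has no dip at the TSS, and the lines meet there at 78.0% and 78.2%.

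Not every methylated promoter was methylated up to its start site. Among the members at 50% or more in WT, 29 had at least 10 WT calls within 100 bp of the TSS, and 4 of them were under 50% there: Tdrd1 (27.5% of 80 calls in WT, 20% of 40 in TCKO), Stra8 (11.1% of 18, 44.4% of 18), Piwil1 (14.3% of 14, 50% of 4) and Hormad2 (47.7% of 44, 66.7% of 48). Asz1 (91.2% of 113, 90.7% of 54), Dazl (90.7% of 107, 89.5% of 105) and Tex12 (85.0% of 153, 76.8% of 198) kept their high levels.

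The E-box was frequent among these promoters, and its CpG was less methylated than the CpGs around it. CACGTG was found within 500 bp of the TSS in 21 of the 37 members (56.8%), in 17.1% of all promoters and in 22.7% of those with an o/e of at least 0.6. It occurred 29 times, of which 12 copies in 10 members lay within 100 bp upstream of the TSS. In the members at 50% or more in WT, the CpG of the E-box was at 63.0% of 127 calls in WT (54.3% to 70.9%), while the other CpGs of the same 20 promoters were at 79.2% of 5061 calls. In TCKO the levels were 62.8% of 113 calls (53.6% to 71.2%) and 80.8% of 4447. Within 250 bp of the TSS the E-box CpG was at 49.4% of 83 calls in WT and 59.7% of 77 in TCKO, against 78.8% and 80.5%.

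Low E-box levels were not particular to germline genes. In the 652 other promoters at 50% or more in WT that hold a CACGTG, its CpG was at 59.1% of 6916 calls in WT and 63.3% of 5640 in TCKO, and the other CpGs at 73.4% and 76.9%. Single copies carried at most 14 WT and 13 TCKO calls, so that no copy can be compared on its own. Of the 26 copies with calls in both libraries, 12 were higher, 9 lower and 5 equal in TCKO. The pairs in Tdrd9 had 1 of 10 WT calls and 8 of 13 TCKO calls methylated, those in Fkbp6 4 of 10 and 7 of 12, those in Sycp3 9 of 14 and 4 of 9, and those in Hormad1 5 of 8 and 4 of 7.

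TCCCGC was found in 19 members (51.4%), in 47.3% of all promoters and in 76.5% of those with an o/e of at least 0.6. Over all 19 members its CpG was at 75.6% of 82 calls in WT and 73.5% of 83 in TCKO. In those at 50% or more in WT, the set used for the E-box levels above, it was at 85.5% of 69 calls and 86.0% of 57. In the Sycp3 copy shown above 11 of 12 calls were methylated in each library. Both strings were searched as exact letters on both strands, which says nothing of binding.

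**Figure D5:**
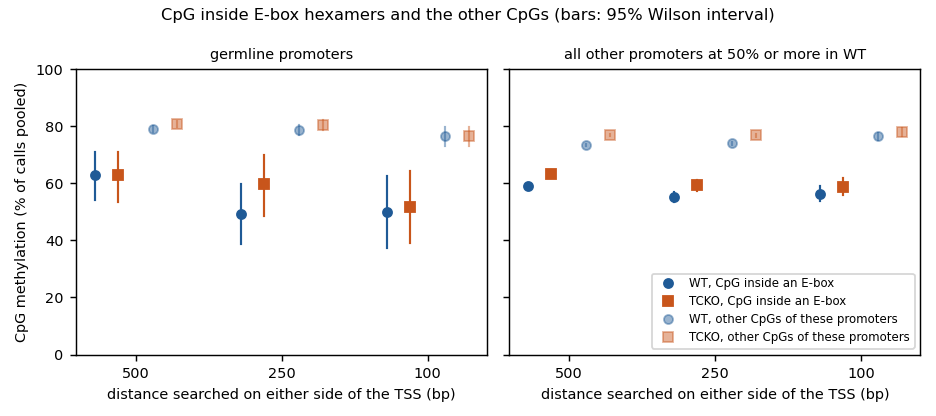
Pooled methylation (%) of the CpG inside CACGTG (solid) and of the other CpGs of the same promoters (pale), within 500, 250 and 100 bp of the TSS, in WT (circles) and TCKO (squares) with 95% Wilson intervals, for germline promoters (left) and other promoters (right) at 50% or more in WT. The E-box CpG lies below the other CpGs at each distance in both panels, for example 63.0% against 79.2% in the germline promoters of WT at 500 bp.

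The bodies of most members gained methylation. The median level over the 37 bodies was 72.1% in WT and 77.6% in TCKO, and the median change was 5.50 points, against 5.66 over all genes. The Fisher exact test called 30 of the 37 higher and none lower, and 64.4% of all gene bodies higher and 2.79% lower. At an unadjusted p under 0.05 no body was lower either. In 25 members the body was higher in TCKO by more than the promoter was. The same count was not made over all genes, where the median change was 5.66 points for bodies and 0.918 for promoters. As most bodies hold far more calls than a promoter window, small differences pass the test.

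The largest gains were in Piwil4 (70.6% to 81.6%, 10.9 points), Spo11 (72.9% to 83.1%, 10.1 points) and Zar1 (52.9% to 63.0%, 10.03 points), and 8 members gained at least 8 points, among them Piwil1, Ddx4, Hormad2, Tex15 and Dazl. Called with gains between 5 and 8 points were Asz1, Tdrd5, Tex12, Stra8, Tdrd9, Tdrd1, Mael, Brdt, Tdrd12, Tex14, Smc1b, Fkbp6, Piwil2 and Rnf17. Those called with gains under 5 points were Hormad1, Syce1, Mov10l1, Mei1, Sycp3, Slc25a31, Stk31 and Sycp1. The bodies of Tdrd6, Tex19.1, Sycp2, Dmrtb1, Tex101, Rpl10l and Dpep3 were not called. With 1 cytosine kept per 100 bp, 26 of the 37 bodies and 57.4% of all gene bodies were called higher. Dazl (3.9 points, adjusted p = 0.15, Fisher exact test), Zar1 (7.89 points, adjusted p = 0.194), Hormad1, Syce1 and Sycp3 were then not called, and Tdrd6 was (4.38 points, adjusted p = 0.0416). Without the first 1000 bp, 30 of 36 members and 67.7% of all gene bodies were called higher. Tdrd6 and Sycp2 were then among those called, by 5.4 and 2.39 points, and Hormad1 and Sycp3 were not. At CpGs with at least 4 calls Tdrd6 and Sycp2 were also called higher, by 6.9 and 2.43 points. Over the whole bodies, Dpep3 (83.5% to 82.8%) and Tex101 (71.8% to 71.1%) were the only ones with a lower value in TCKO.

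Some introns held short stretches with much larger gains. Hyper-CG-DMRs, stretches of 200 bp bins with at least 4 CpG cytosines, a mean of at least 4 calls per cytosine, a gain above 40 points and an adjusted p below 0.05 (Fisher exact test over all testable bins), numbered 28 in 15 members, 23 in introns and 5 overlapping exons. No bin with an equal loss was found among the 1847 testable bins of the members. Such losses were rare everywhere, with 886 among 2534629 testable bins of the genome, so that their absence is near the background. Among all genes with testable bins, 36.3% had a hyper-CG-DMR bin, and 15 of 37 members did. Of the members' testable bins 1.68% were hypermethylated, against 3.14% in the bodies of all genes.

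No member had a hyper-CG-DMR bin within 500 bp of its TSS, and 1.72% of all promoters did, so that none of 37 is near the background. A gain above 40 points is also out of reach for bins already highly methylated in WT. The median WT promoter level was 75.2% in the members and 9.23% over all promoters. Most stretches were of low or middling level in WT, with medians of 32.7% for WT and 82.6% for TCKO. The largest gain lay in an intron of Brdt (chr5:107348201-107348400), where 7 of 55 WT calls and 57 of 63 TCKO calls were methylated. Mael had a stretch of 400 bp centred 1547 bp downstream of the TSS (chr1:166237001-166237400, 25% of 100 calls to 87.7% of 73), and Ddx4 a stretch of the same length in an intron (chr13:112646401-112646800, 15.6% of 135 calls to 78.9% of 109).

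Hormad2 held 5 of these stretches, Tex15 held 4 and Brdt 3. In Hormad2, the stretch at chr11:4401401-4401600 had 1 methylated call of 124 in WT and 36 of 71 in TCKO. The bodies of Piwil4, Ddx4, Rnf17 and Tdrd9 held a pair each, and Mael, Asz1, Fkbp6, Smc1b, Spo11, Mei1, Zar1 and Tex14 1 each. A further 6 stretches lay within 5 kb upstream of Piwil1, Mael, Asz1, Tdrd1, Sycp2 and Rpl10l. The one upstream of Mael rose from 0 of 22 calls, which allows up to 13.6%, to 10 of 20, while the promoter of Mael stayed at 86.8% and 86.2%.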

How the data were processed

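WGBS libraries of WT and TCKO osteoblasts (1 each) were analysed from the deposited counts: for each CpG cytosine, the authors gave the number of methylated reads and the number of all reads. Per the labels and the study's methods, reads were aligned to GRCm38 with BSMAP 2.74, allowing 2 mismatches and keeping unique hits, and counted with its methratio script. Whether duplicate reads were removed is not given in the sources used here, and 5-hydroxymethylcytosine counts as methylated. Calls were pooled in windows set by GENCODE M21 (500 bp on either side of the TSS, the 5' end of the gene; and the gene body). Genes with at least 20 calls in each library were compared by Fisher's exact test (2-sided), and p-values were adjusted by the Benjamini-Hochberg method across all protein-coding genes (threshold 0.05). Levels carry 95% Wilson intervals, differences Newcombe intervals. Bins of 200 bp gave CG-DMRs. An exact test stratified by CpG was added after the data were seen. Tests were checked on simulated data in which all calls were independent. That check cannot show how the tests behave when calls on the same read depend on each other. The scripts ran under numba 0.67.0, scipy 1.17.1, pysam 0.24.0 and numpy 2.4.6 with Python 3.11.15.

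The members and lists were chosen with earlier results of these data known. The rule for named genes was to account for every member, with full values for those called, the largest changes and those under 50% in WT. Sequences were shown for the 6 members with the most calls at a string CpG within the 250 bases upstream of the TSS (ties by name). Alternatives tried were other windows, call minimums, strands, CpG means, thinned cytosines and DMR thresholds.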

Additional observations from a re-analysis of the deposited data

How the results depend on the processing

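No paired analysis was possible because each genotype has 1 library. No library was left out. Depth limits the promoter calls, with 46 to 546 calls per member and library. Under the alternative windows, call minimums, strands and averaging tried, the members at 50% or more in WT ranged from 26 of 34 to 35 of 37. The lowest number was with 250 bp on either side and the highest with 2000 bp upstream, against 31 of 37. Members called higher at the promoter numbered 7 with 1000 bp on either side, 10 with 2000 bp upstream, 1 with 250 bp, 5 at the principal transcript, 1 by CpG means, 1 on the minus strand, 0 with 1 cytosine per 100 bp, 5 within CpGs, and 7 by the 10-point rule, against 3. Members called lower, 1 in the report, numbered 2 with 1000 bp and on the minus strand, and 0 with 250 bp, 2000 bp upstream, CpG means or 1 cytosine per 100 bp. In the 2000 bp upstream of the TSS, Mei1, Tdrd1 and Tdrd6 were called higher by 17.6, 18.6 and 9.06 points, having been slightly lower within 500 bp. Over all promoters, 250 bp called 604 of 16911 higher (3.57%), against 1876 of 20704 (9.06%) in the report. With 1000 bp it was 5045 of 21693 (23.3%), and with 2000 bp upstream 5422 of 21662 (25.03%), so that 7 and 10 of 37 are near the background. The share was 8.49% at the principal transcript, 8.16% by CpG means and 5.42% on the minus strand. It was 3.67% with 1 cytosine per 100 bp and 8.28% within CpGs. Members tested numbered 34 with 250 bp and 36 at the principal transcript. The cause of these shifts was not tested.

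The median promoter change was 4.06 points with 1000 bp, 5.55 with 2000 bp upstream and 4.31 on the minus strand, against 1.74, and the median WT level was 71.8% with 2000 bp upstream, 80.6% by CpG means and 77.8% on the plus strand, against 75.2%. Over gene bodies, CpG means gave a median change of 5.91 points, and leaving out the first 1000 bp gave a median WT level of 71.4%. The 10-point rule called 3 of 37 member bodies higher, and 3341 of all 21625 gene bodies. Hyper-CG-DMRs in the members numbered 47 above 30 points, 10 above 50 points, 50 with at least 1 call per cytosine and 8 with at least 10. Members that held at least 1 numbered 7 of 37 above 50 points and 6 of 32 at 10 calls, against 15 of 37. Of all genes with testable bins, 26.9% held such a bin above 50 points and 17.4% at 10 calls, against 36.3%. Over all members with a CACGTG, its CpG was at 42.4% in WT within 250 bp of the TSS, against 56.6% within 500 bp. The values of 49.4% and 63.0% given above are for members at 50% or more in WT.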

Other observations

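A wider list of germline genes, fixed for this description and also chosen with earlier results known, was less methylated than the 37. Of 62 further genes, 61 were found by name and 60 had enough calls, and 36 of these (60.0%) were at 50% or more in WT, with medians of 59.4% (WT) and 63.1% (TCKO). By role, 13 of 16 genes of germ cell specification and the oocyte and 11 of 13 haploid spermatid genes reached 50%, but 7 of 21 further meiosis genes and 5 of 10 further piRNA genes did. Their median promoter change was 1.95 points. The Fisher exact test called 7 of the 60 higher and 2 lower, against 9.06% and 0.763% of all promoters. Their gene bodies changed by a median of 5.09 points, with 39 of 61 called higher and 1 lower. Of all gene bodies 64.4% were called higher and 2.79% lower, so that these counts are near the background.

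Genes for factors that act on germline promoters were themselves mostly unmethylated. Of 13 such genes, 11 had enough calls, with medians of 4.03% (WT) and 5.32% (TCKO). Mga had no methylated call among 99 in WT and 155 in TCKO, which allows levels of up to 3.03% and 1.94%. Max had none among 79 and 78, which allows up to 3.8% and 3.85%. Rnf2, which encodes a catalytic subunit of the Polycomb complex, was called higher, from 6.29% of 143 calls to 30% of 40 (adjusted p = 0.00373, Fisher exact test). It was the only 1 of the 11 called, and 9.06% of all promoters were called higher, so that 1 of 11 is near the background.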
